A study of Mus musculus with 48 samples.

Results

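The PAR bZIP transcription factors *Dbp*, *Tef* and *Hlf* and their opposing repressor *Nfil3* were followed in mouse tibialis anterior muscle by genotype, tumor burden and circadian time. These 4 genes, chosen by name for their place in the output arm of the circadian clock and not by any measured value, are 4 of the 56748 genes in the deposited expression table. The study asked whether pancreatic cancer alters circadian gene expression in skeletal muscle and whether the transcription factor FoxP1 mediates this. It sequenced polyadenylated RNA from 48 muscles, each from a separate male mouse of 39 to 55 weeks, at 6 circadian times (CT18, 22, 26, 30, 34 and 38). Every combination of genotype, condition and time held 2 mice, so each of the 4 classes (WT control, WT KPC, FoxP1SkmKO control and FoxP1SkmKO KPC) held 12.

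FoxP1SkmKO mice carried homozygous floxed *Foxp1* alleles with Cre driven by the promoter of *Acta1*, an actin gene of skeletal muscle fibers, so other cells of the muscle keep *Foxp1*. WT mice were labelled as C57BL/6J in the sample record, whereas the series design describes floxed mice without Cre, so the genetic match of the controls was not settled here. KPC mice had received 250000 cells of a murine pancreatic cancer line in 50 µl of saline by injection into the pancreas, and control mice received the same volume without cells. Collection took place 12 days after injection. The mice were in constant darkness, which began at CT0 (06:00 clock time), and the earliest muscles were taken 18 h later, so CT24 to CT36 was the subjective day, the rest phase of a mouse, and the other times fell in the active phase. The study's text gives a different age for these mice in its paragraph on limitations.

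PAR bZIP factors are named for a proline and acidic amino acid-rich domain beside their basic leucine zipper. As dimers they activate genes through the D-box, a motif that NFIL3 (also called E4BP4) binds as well, and NFIL3 represses from it. In the textbook account of the clock, CLOCK and BMAL1 drive *Dbp* through E-boxes, the REV-ERB and ROR receptors act on *Nfil3* through response elements called ROREs, and the balance of activator and repressor sets the timing of D-box genes such as the Period genes. DBP, TEF and HLF are best known for the daily control of detoxification and metabolic genes in liver and kidney, and their transcripts also cycle in muscle.

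In mm39, the build of the deposited files, *Dbp* (ENSMUSG00000059824) spans 45354512 to 45359627 on the plus strand of chromosome 7 and *Tef* (ENSMUSG00000022389) spans 81686622 to 81711064 on the plus strand of chromosome 15. *Hlf* (ENSMUSG00000003949) spans 90227362 to 90281721 on the minus strand of chromosome 11 and *Nfil3* (ENSMUSG00000056749) spans 53121245 to 53135109 on the minus strand of chromosome 13. All 4 are protein-coding. Each shares bases with a neighbor on the opposite strand, *Sphk2* for *Dbp*, *Mmd* for *Hlf* and noncoding genes for *Tef* and *Nfil3*, and *Nfil3* also overlaps a noncoding gene on its own strand. Whether the counting used strand is not given in the sources used here, so reads of such neighbors could not be separated.

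All 13 clock motif sites found at these genes are shown, because E-boxes and ROREs occur at both activators and the repressor while D-boxes occur at the repressor. An E-box (CACGTG), a D-box (TTATGTAA or TTACGTAA) and a RORE (TAGGTCA) were searched on both strands of the genome in the 1000 bases before the start of the GENCODE canonical transcript and the 3000 bases from it. No site found overlaps another. That start lies inside the deposited span of *Tef* and outside those of *Hlf* and *Nfil3*, since annotation releases differ. Each sequence below is given 5′ to 3′ on the strand of its gene, with the motif, or its reverse complement, in capitals.
Dbp E-box in intron 2, 2625 bases from the start, chr7:45357125-45357152: cattccctcgcCACGTGagtccgccttc
Dbp E-box in intron 2, 2738 bases from the start, chr7:45357238-45357265: gctgtaggccaCACGTGatgcggccctg
Dbp RORE 183 bases before the start, inside exons of the neighboring Car11, chr7:45354312-45354340: ttggccaaataTAGGTCAgtgtcccgcct
Dbp RORE in intron 1, 770 bases from the start, chr7:45355270-45355298: ctagtcttcatTAGGTCActtaggtcttc
Tef E-box 466 bases before the start, chr15:81695133-81695160: cgccgcagccgCACGTGcagagcctcgt
Tef E-box 355 bases before the start, chr15:81695244-81695271: tgctgccgctcCACGTGaccctcggggc
Tef E-box 133 bases before the start, chr15:81695466-81695493: acctggcccagCACGTGtctacatcgtt
Hlf E-box in intron 1, 1293 bases from the start, chr11:90280453-90280480: ctgagcaggctCACGTGtaaccgcgtgc
Nfil3 E-box 403 bases before the start, chr13:53135759-53135786: cgccacctctcCACGTGgtcggggacac
Nfil3 RORE in exon 1, 281 bases from the start, chr13:53135070-53135098: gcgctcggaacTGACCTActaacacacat
Nfil3 D-box in intron 1, 620 bases from the start, chr13:53134730-53134759: cggggcatgcaTTACATAAacttttgctgc
Nfil3 D-box in intron 1, 1536 bases from the start, chr13:53133814-53133843: gaaatgtgaggTTATGTAActgccgaattt
Nfil3 D-box in intron 1, 2321 bases from the start, chr13:53133029-53133058: tagcgtaccatTTACATAAttgaactacaa

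All 4 genes held an E-box, *Tef* and *Nfil3* before the start and *Dbp* and *Hlf* in an intron. ROREs were found at *Dbp* and *Nfil3*, and D-boxes were found at *Nfil3* alone among the 4 genes. An E-box stood in 15.5% of 21751 protein-coding windows of 1000 bases before a start and in 32.5% of 21750 windows of 3000 bases after one, so a single site is common. As many E-boxes before the start as *Tef* has (3) were found in 0.285% of the windows, as many after the start as *Dbp* has (2) in 7.45%, and as many D-boxes after the start as *Nfil3* has (3) in 0.124%. D-boxes were present in 4.5% of the windows before and 11.8% of those after a start, and ROREs in 9.37% and 23.4%. A match is a run of letters and not a shown binding site, and no binding was measured here.

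The libraries held 14480446 to 20787135 counts on genes, with a median of 16601271. The counts of *Tef* lay between 4214 and 8046 per library and those of *Dbp* between 203 and 2294. Those of *Nfil3* lay between 148 and 1053, and those of *Hlf* between 165 and 544. Each of these genes thus had over 100 counts in every library. That floor does not cover the other genes named below, some of which were scarce. Between mice of a group, the chi-square of the counts was 5.15 to 17.4 per degree of freedom, where sampling alone gives about 1, and no pair looked like one library deposited again. Muscle fiber markers summed to between 43293 and 61319 FPKM (fragments per kilobase of gene, scaled to library size) in every library, against 1.16 to 19.8 FPKM for 10 immune markers, as the tissue label says. *Foxp1* had a median of 0.615 FPKM in WT control, 0.636 in WT KPC, 0.585 in FoxP1SkmKO control and 0.531 in FoxP1SkmKO KPC mice, with overlapping ranges, so its level did not separate the genotypes, and the genotypes are named as labelled. In whole muscle, fewer cells of a type and less RNA per cell cannot be told apart.

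*Dbp*, the member with the widest swing, was lowest late in the active phase and highest in the middle of the rest phase. Over the 8 mice of a time, its lowest, median and highest FPKM were 6.15, 7.25 and 9.77 at CT18 and 3.69, 4.65 and 6.34 at CT22. They were 10.8, 16.7 and 26.6 at CT26, and 39.0, 42.2 and 46.1 at CT30. The 8 mice of CT30 thus all lay above the 8 mice of CT26, which all lay above those of CT18 and CT22. Its values were 33.01, 39.5 and 46.0 at CT34 and 13.0, 15.0 and 27.9 at CT38. The neighbors CT30 and CT34 overlapped, and in WT control mice their values were 39.0 and 43.3 FPKM at CT30 and 39.4 and 39.5 FPKM at CT34. CT38 overlapped CT26 over the 8 mice, so the same level was passed on the way up and on the way down.

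*Tef*, the most abundant of the 4 per unit of gene length, moved over a much narrower range. The lowest, median and highest FPKM over 8 mice were 34.9, 35.95 and 37.7 at CT22, 36.3, 41.3 and 49.5 at CT26, and 46.1, 51.7 and 59.6 at CT30. They were 52.7, 56.4 and 58.9 at CT34, 45.2, 48.9 and 51.8 at CT38, and 33.5, 39.9 and 41.3 at CT18. The mice of CT34 lay above all mice of CT18, CT22, CT26 and CT38 and overlapped those of CT30. At CT22 the 8 mice lay close together, with a mean of 36.2 FPKM and an SD of 0.928.

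*Hlf* was the scarcest of the 4. Its lowest, median and highest FPKM over 8 mice were 1.52, 1.91 and 2.14 at CT22, 1.65, 2.11 and 2.40 at CT26, and 2.67, 3.21 and 3.95 at CT30. They were 3.24, 4.04 and 4.67 at CT34, 2.36, 2.73 and 2.99 at CT38, and 1.83, 2.38 and 2.68 at CT18. The mice of CT34 lay above all mice of CT18, CT22, CT26 and CT38, and CT30 overlapped CT34, CT38 and the highest mouse of CT18. In WT control mice every neighbor in the order of the 6 times stood apart, from 4.67 and 4.20 FPKM at CT34 down to 1.65 and 1.65 FPKM at CT26, whereas in FoxP1SkmKO control mice each neighbor in that order overlapped. How often other genes do so was not counted.

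*Nfil3* was lowest at CT30, where *Dbp* was highest, and of the activators it ran most nearly opposite to *Dbp*. From CT26 to CT38 it rose together with *Tef* and *Hlf*. Its lowest, median and highest FPKM over 8 mice were 18.1, 20.3 and 25.5 at CT18, 16.0, 22.6 and 27.5 at CT22, and 7.67, 10.2 and 14.1 at CT26. They were 4.51, 6.78 and 8.62 at CT30, 7.87, 9.25 and 15.1 at CT34, and 13.2, 17.5 and 27.7 at CT38. All mice of CT18 and CT22 lay above all mice of CT26, CT30 and CT34, and the mice of CT18, CT22 and CT38 overlapped. The lowest mouse at CT30 was a WT control mouse with 4.51 FPKM, whose partner had 6.49 FPKM, against 8.62 and 7.23 FPKM in WT KPC mice at that time.

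**Figure D1:**
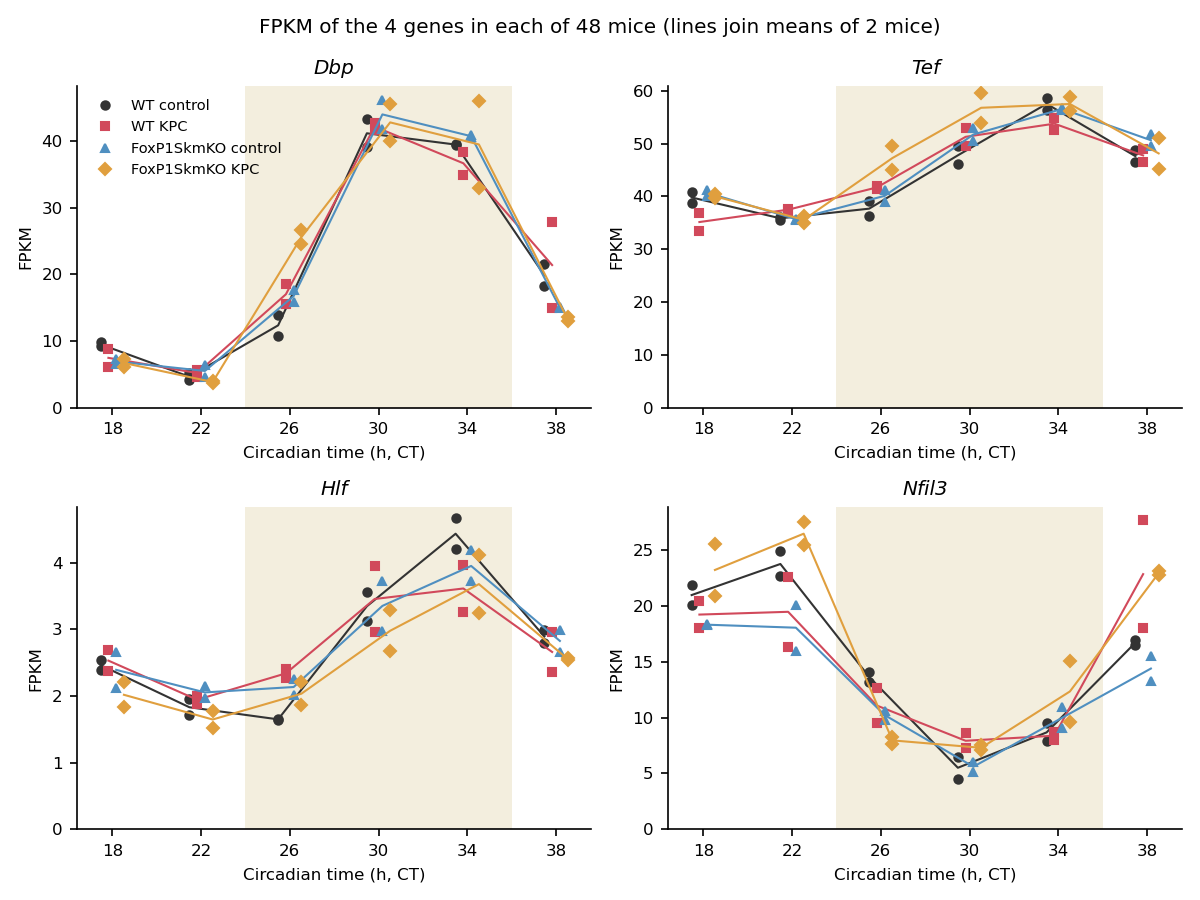
FPKM (vertical axis, from 0) of each gene against circadian time in hours (horizontal axis), with 1 point per mouse, lines through the means of 2 mice, colors and markers for the 4 classes, and the rest phase (CT24 to CT36) shaded. *Dbp*, *Tef* and *Hlf* are highest in the rest phase, at CT30 or CT34 in each class, and *Nfil3* is lowest at CT30 in each class, where *Dbp* lies between 39.0 and 46.1 FPKM and *Nfil3* between 4.51 and 8.62 FPKM.

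Because PAR bZIP factors and NFIL3 share a motif, the summed FPKM of *Dbp*, *Tef* and *Hlf* was divided by that of *Nfil3* in each mouse. This is a ratio of transcripts and not of proteins. The median over 8 mice was 2.47 at CT18 and 1.92 at CT22, 5.78 at CT26, 14.6 at CT30, 10.9 at CT34 and 4.16 at CT38. The ranges of CT22 (1.53 to 2.77) and CT30 (11.3 to 19.5) stood far apart. At CT26, the start of the rest phase, the ratio was 3.45 and 4.14 in WT control mice, 4.70 and 6.59 in WT KPC mice, 5.37 and 6.19 in FoxP1SkmKO control mice and 8.70 and 10.2 in FoxP1SkmKO KPC mice. There the WT control mice were the lowest and the FoxP1SkmKO KPC mice the highest, with no overlap between either group and the others. With 2 mice a group, these differences in the ratio were not tested. Since *Tef* was high at all times, it made up a median of 84.4% of the PAR bZIP FPKM at CT22 and 52.3% at CT30, while the share of *Dbp* went from 10.8% to 44.3%. *Hlf* stayed between a median of 3.35% and 4.76% at every time.

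**Figure D2:**
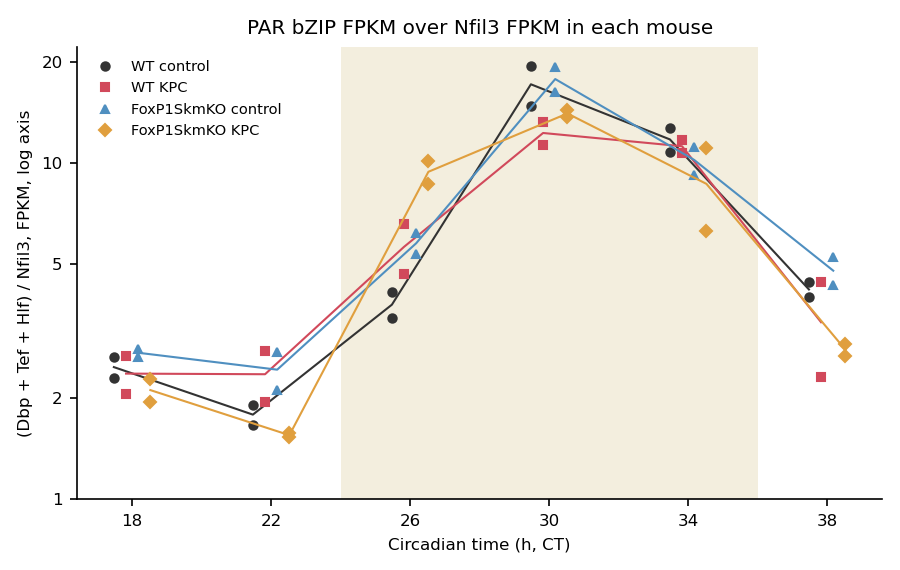
The ratio of *Dbp*, *Tef* and *Hlf* FPKM, summed, to *Nfil3* FPKM (log axis) against circadian time in hours, with 1 point per mouse and lines through the means of 2 mice for the 4 classes. The ratio lies between 1.53 and 2.80 in all mice of CT18 and CT22 and between 11.3 and 19.5 in all mice of CT30, and on this log axis the classes spread most at CT26, from 3.45 to 10.2.

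Each gene's FPKM over the 12 mice of a class was fitted with a 24 h sinusoid, and a gene was called rhythmic at p under 0.01 (F test with 9 residual degrees of freedom over all genes with varying FPKM). All 4 members were rhythmic in all 4 classes, where 4.92% of genes were called in WT control, 4.22% in WT KPC, 4.07% in FoxP1SkmKO control and 2.63% in FoxP1SkmKO KPC mice. In WT control mice the fitted amplitude (the distance from the fitted mean, or basal level, to the peak) was 19.4 ± 1.93 FPKM (SE) around 21.2 FPKM for *Dbp*, 10.2 ± 1.03 around 44.4 for *Tef*, 1.23 ± 0.190 around 2.77 for *Hlf* and 8.90 ± 0.728 around 14.9 for *Nfil3*. Relative to the basal level, *Dbp* thus had the widest swing (0.919) and *Tef* the narrowest (0.231). When p was adjusted over all genes by Benjamini-Hochberg and held to 0.05, 3 members stayed rhythmic in WT control mice (background 0.551%), 2 in WT KPC (0.475%), 3 in FoxP1SkmKO control (0.414%) and 2 in FoxP1SkmKO KPC mice (0.116%). *Dbp* and *Tef* passed it in every class. *Hlf* passed it in none, with an adjusted p of 0.0605 in WT control and 0.166 in WT KPC mice, and *Nfil3* missed it in WT KPC mice (0.172) and FoxP1SkmKO KPC mice (0.121).

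Among the activators, the fitted peak of *Dbp* came first in each class. *Dbp* peaked at CT32.6 in WT control mice (95% interval 31.7 to 33.5), CT32.2 in WT KPC, CT31.8 in FoxP1SkmKO control and CT31.2 in FoxP1SkmKO KPC mice. *Tef* peaked at CT34.2, 32.8, 33.9 and 32.4 in the same order of classes, between 0.636 and 2.11 h after *Dbp*. The smallest of these gaps, in WT KPC mice, had a standard error of 0.506 h if the fits are taken as independent. In that class *Hlf* followed *Dbp* by 0.958 h with a standard error of 0.900 h, so the order there is not settled. *Hlf* peaked at CT34.3, 33.1, 33.7 and 33.5. The gap from *Tef* to *Hlf* was within its standard error in 3 classes, and in FoxP1SkmKO KPC mice it was 1.09 h with a standard error of 0.690 h if the fits are taken as independent. *Nfil3* peaked at CT19.5 in WT control and CT18.7 in FoxP1SkmKO control mice, and at CT41.9 in both KPC classes, which on the circle of 24 h lies shortly before CT18. The *Nfil3* peak came 9.72 to 10.9 h after that of *Dbp*.

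**Figure D3:**
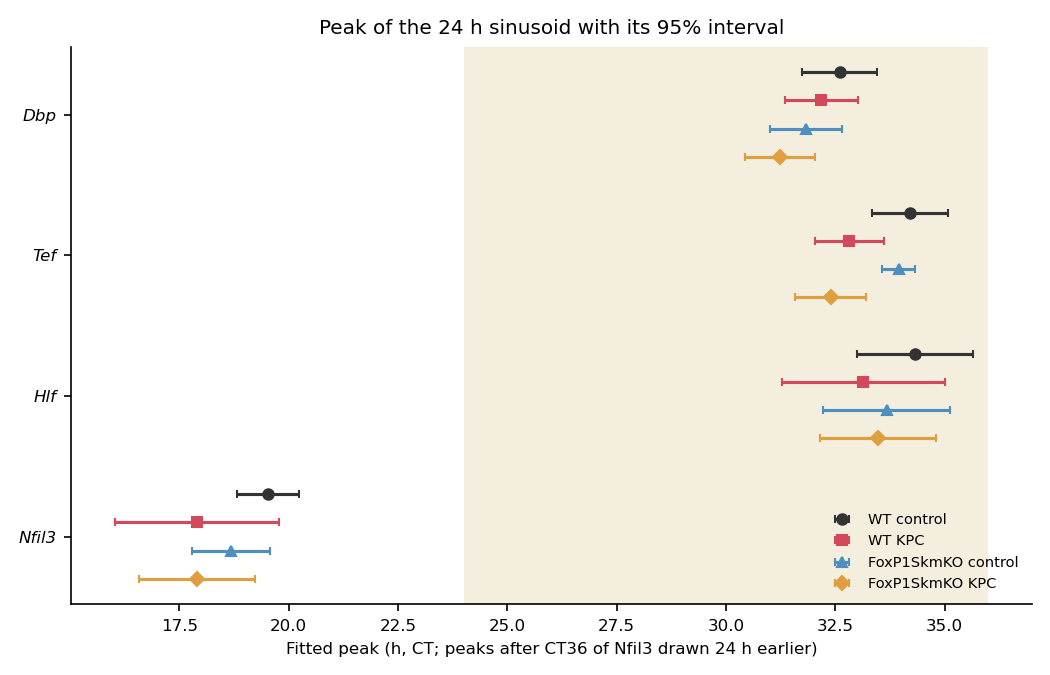
Fitted peak of the 24 h sinusoid (horizontal axis, hours of circadian time) for each gene and class, with bars for the 95% interval of the fit to 12 mice and the rest phase shaded. The 3 activators peak between CT31.2 and CT34.3, *Nfil3* peaks near the middle of the active phase (the peaks at CT41.9 are drawn 24 h earlier), and both KPC classes of *Tef* lie to the left of their control class.

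To size the daily change without a sinusoid, counts at times 12 h apart were compared over the 4 classes (8 mice against 8) by the quasi-likelihood test of edgeR after Benjamini-Hochberg adjustment over 15637 genes. From CT18 to CT30, *Dbp* rose 5.66-fold (log2 fold change 2.50, standard error 0.10, adjusted p = 5.6e-19), *Tef* rose 1.35-fold, *Hlf* rose 1.41-fold, and *Nfil3* fell by 1.64 on the log2 scale (standard error 0.10, adjusted p = 6.7e-14). All 4 passed, where 18.6% of genes did in either direction. From CT22 to CT34, all 4 passed as well (background 19%), with *Dbp* 8.26-fold and *Hlf* 2.10-fold higher, *Tef* 1.56-fold higher, and *Nfil3* lower, since it fell by 1.16 on the log2 scale. From CT26 to CT38, 3 of 4 passed (background 17.5%). *Nfil3* rose 1.79-fold, *Hlf* 1.35-fold and *Tef* 1.17-fold, while *Dbp* had a log2 fold change of -0.02 (95% interval -0.21 to 0.17, adjusted p = 0.903). DESeq2 made the same number of calls in each contrast. Immune and fibroblast markers moved with time of day too, with 4 of 8 tested immune and 3 of 4 fibroblast markers lower at CT30 than at CT18 and 4 of 8 and 4 of 4 lower at CT34 than at CT22, and their part in the members' values was not tested.

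At a given time, KPC mice differed from control mice by a log2 fold change of between -0.52 and 0.67 in the 4 members. Between times 12 h apart the largest change was 3.05, for *Dbp*. For *Hlf* these changes were 0.50, 1.07 and 0.43, against a KPC difference of 0.50 in WT mice at CT26. Every p here tests a difference against the spread between mice of a group, which was estimated over all 24 groups because each held 2 mice. At none of the 6 times in either genotype did a member pass the quasi-likelihood test of edgeR after Benjamini-Hochberg adjustment. In WT mice 0% of 15637 genes passed at CT18, 0% at CT22, 7.18% at CT26, 0.0064% at CT30, 0% at CT34 and 0.0256% at CT38, and in FoxP1SkmKO mice 0.0192%, 0%, 0.0384%, 0%, 0% and 0.0064%. At an unadjusted p under 0.05, WT mice gave 1 member at CT18 (*Tef*), 2 at CT26 (*Dbp* and *Hlf*), 1 at CT30 and 1 at CT38 (*Nfil3* at both), and 0 at CT22 and CT34, where 6.23%, 21.4%, 5.19%, 9.84%, 4.76% and 6.06% of all genes had such a p. FoxP1SkmKO mice gave 3 at CT22 (*Dbp*, *Hlf* and *Nfil3*), 2 at CT26 (*Dbp* and *Tef*), 1 at CT30 (*Tef*), 1 at CT38 (*Nfil3*), and 0 at CT18 and CT34, where 4.62%, 8.9%, 8.95%, 8.06%, 13.8% and 4.04% of all genes did. DESeq2 called 1 member at 1 time, *Hlf* in WT mice at CT26 (adjusted p = 0.0419, with 12.4% of its genes called), and 0 at the others. Without the filter on low counts, edgeR called 8 of the 48 tests (4 in each genotype). In that fit the prior degrees of freedom were infinite, so every gene took the spread of the common trend, and 0.313% to 4.12% of 28726 genes were called at a time.

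At CT26, soon after activity ends, the activators stood higher in KPC mice in several groups. *Dbp* had 10.8 and 13.9 FPKM in WT control and 18.5 and 15.5 FPKM in WT KPC mice, and 17.6 and 15.9 FPKM in FoxP1SkmKO control and 24.5 and 26.6 FPKM in FoxP1SkmKO KPC mice. The KPC mice lay above the control mice of their genotype without overlap, by 1.37-fold in WT (log2 fold change 0.46, 95% interval 0.07 to 0.84, adjusted p = 0.142 from edgeR) and 1.52-fold in FoxP1SkmKO mice (0.61, 0.23 to 0.98, adjusted p = 0.298). *Hlf* had 1.65 and 1.65 FPKM in WT control and 2.28 and 2.40 FPKM in WT KPC mice, a ratio of 1.41 (adjusted p = 0.0562 from edgeR), whereas FoxP1SkmKO mice had 2.02 and 2.25 FPKM in controls and 2.21 and 1.86 FPKM with tumors, which overlapped. *Tef* had 36.3 and 39.1 FPKM in WT control, 42.03 and 41.4 in WT KPC, 41.3 and 39.0 in FoxP1SkmKO control and 45.1 and 49.5 FPKM in FoxP1SkmKO KPC mice. Its log2 fold change in FoxP1SkmKO mice was 0.23 (95% interval 0.09 to 0.37, adjusted p = 0.298 from edgeR), also with no overlap. At CT26 in WT mice, 3342 of the 15637 genes had an unadjusted p under 0.05, so a p of that size was common among all genes in that contrast. The share of all genes with KPC and control mice apart without overlap was not counted.

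*Nfil3* stood higher with tumors at CT30 and at the last time, CT38, in both genotypes, and lower at CT26 in both. Its log2 fold change at CT26 was -0.31 in WT and -0.37 in FoxP1SkmKO mice. At CT18 and CT34 it was lower with tumors in WT (-0.13 and -0.04) and higher in FoxP1SkmKO mice (0.35 and 0.31). None of the 6 times passed in edgeR in either genotype. At CT38 it had 16.9 and 16.5 FPKM in WT control and 18.1 and 27.7 FPKM in WT KPC mice, and 15.6 and 13.2 FPKM in FoxP1SkmKO control and 23.1 and 22.8 FPKM in FoxP1SkmKO KPC mice. The KPC mice lay above the controls in both, with 1 WT KPC mouse close to the control pair, and the share of all genes apart in this way was not counted. The log2 fold change was 0.45 in WT (adjusted p = 0.406 from edgeR) and 0.67 in FoxP1SkmKO mice (1.59-fold, 95% interval 0.30 to 1.04, adjusted p = 0.264). At CT22 the FoxP1SkmKO mice had 16.0 and 20.1 FPKM without and 25.5 and 27.5 FPKM with tumors (log2 fold change 0.54), while WT mice had 24.9 and 22.7 FPKM without and 16.4 and 22.6 FPKM with tumors (-0.29). At CT30, the trough, WT mice had 4.51 and 6.49 FPKM without and 8.62 and 7.23 FPKM with tumors (0.53), and FoxP1SkmKO mice 6.05 and 5.14 and 7.51 and 7.08 FPKM (0.39).

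Averaged over the 6 times (12 mice against 12), all 4 members were close to control in WT KPC mice. Differences of opposite sign at single times offset each other in such an average. In WT mice *Nfil3* had -0.29 at CT22 and -0.31 at CT26 but 0.53 at CT30 and 0.45 at CT38. *Dbp* had -0.35 at CT18 and 0.46 at CT26, and none of these passed in edgeR. The averaged log2 fold changes were 0.05 for *Dbp*, 0.01 for *Tef*, 0.04 for *Hlf* and 0.04 for *Nfil3*, with 95% intervals between -0.12 and 0.21. Of the 4 members, 0 passed the quasi-likelihood test of edgeR after Benjamini-Hochberg adjustment (background 1.78%). At an unadjusted p under 0.05 there were 0 (15.2% of all genes), and DESeq2 called 0. In the same WT contrast 3 of 8 tested immune markers rose, *Ptprc* (0.80), *S100a8* (2.83) and *S100a9* (2.06). Of these, *S100a8* and *Ptprc* were scarce, with medians of 0.0748 and 0.0976 FPKM in WT control mice. Of 4 fibroblast markers *Col1a1* alone passed and fell by 0.91, and of 4 endothelial markers *Kdr* alone passed and fell by 0.27. The median over the endothelial markers was -0.02, and 0 of 4 adipocyte markers passed. In FoxP1SkmKO mice, 0 of the 4 members passed as well (background 0.422%), 2 had an unadjusted p under 0.05 (12.4% of all genes did), and DESeq2 called *Nfil3* (adjusted p = 0.0165, with 0.99% of its genes called). *Nfil3* there had a log2 fold change of 0.32 (1.24-fold, 95% interval 0.16 to 0.47, adjusted p = 0.0562 from edgeR), with KPC group means above control at 5 of 6 times and below it at CT26. *Hlf* had -0.17 (95% interval -0.30 to -0.04, adjusted p = 0.218), *Tef* 0.05 and *Dbp* -0.03. The median over all genes tested was 0.00 on this scale in both genotypes. In FoxP1SkmKO mice 0 of 8 immune markers passed in this contrast, *Lum* of the 4 fibroblast markers fell by 0.79 on the log2 scale, and the median of the summed fibroblast markers was 37.2 FPKM in control and 20.8 FPKM in KPC mice, whose part in the value of *Nfil3* was not tested. When the KPC effect was compared between the genotypes, 0 of 8 immune markers passed.

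**Figure D4:**
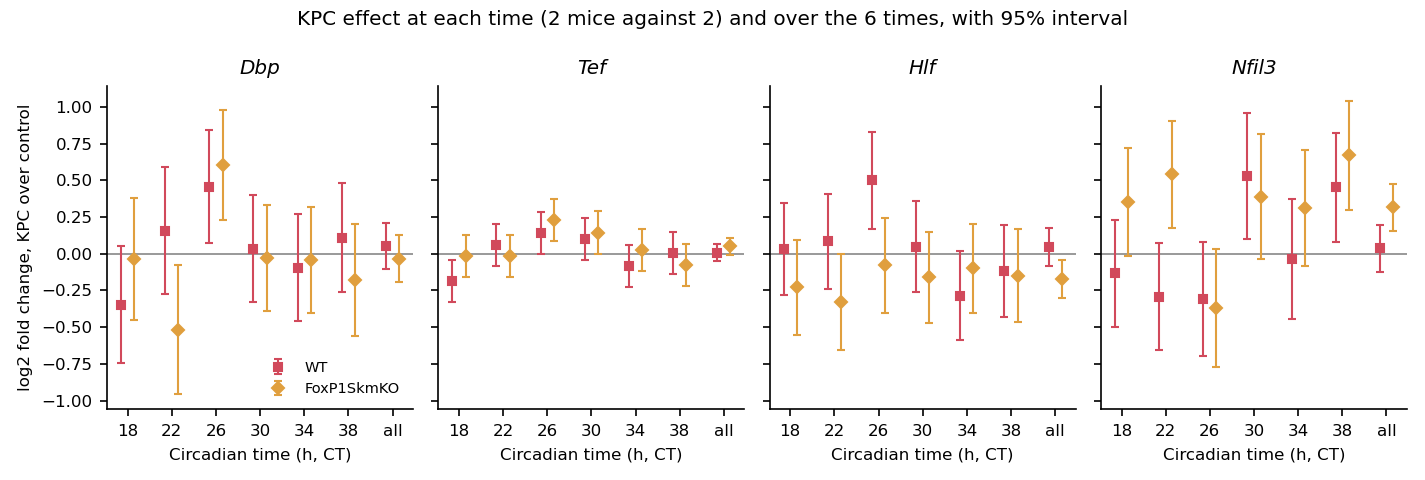
Log2 fold change of KPC over control mice from edgeR (vertical axis) at each circadian time and over all 6 times (horizontal axis), for each gene, with squares for WT, diamonds for FoxP1SkmKO and bars for the 95% interval. *Tef* has the narrowest intervals, *Dbp* is above 0 at CT26 in both genotypes (0.46 and 0.61), and *Nfil3* is above 0 over all times in FoxP1SkmKO mice (0.32) but near 0 in WT mice (0.04).

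The KPC effect itself was then compared between the genotypes. Averaged over the 6 times, the effect in WT minus that in FoxP1SkmKO mice was -0.28 for *Nfil3* (95% interval -0.50 to -0.06, adjusted p = 0.763 from edgeR) and 0.22 for *Hlf* (0.03 to 0.40, adjusted p = 0.763), each with an unadjusted p under 0.05. *Dbp* (0.09) and *Tef* (-0.04) had intervals that spanned 0. Thus 0 of 4 members passed after adjustment in edgeR (background 0%) and 0 in DESeq2, and 2 had an unadjusted p under 0.05 in each tool (6.52% of all genes in edgeR).

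Parameters of the fitted rhythms were compared between classes by a likelihood ratio test (threshold p under 0.05, 18 residual degrees of freedom). Basal level and amplitude were tested over all genes with varying FPKM, and peak time over the genes rhythmic in both classes. The peak of *Tef* was the only one among the members whose shift in KPC mice had p under 0.05, in both genotypes. It came 1.39 h earlier in WT mice (shift -1.39 h, standard error 0.516, p = 0.0154, n = 12 mice a class, adjusted p = 0.274 over the 346 genes rhythmic in both classes) and 1.56 h earlier in FoxP1SkmKO mice (-1.56 h, standard error 0.398, p = 0.00253, adjusted p = 0.0749 over 230 genes). *Tef* was the 1 member of 4 with p under 0.05 for the peak in each genotype, where 10.7% of genes had it in WT and 16.1% in FoxP1SkmKO mice. The 2 mice of CT34, the control peak, had 56.4 and 58.6 FPKM in WT control and 52.7 and 54.9 FPKM in WT KPC mice, and those of CT30 had 46.1 and 49.5 and 53.0 and 49.6 FPKM, so the KPC mice were lower at the later and higher at the earlier of these times. In FoxP1SkmKO mice the corresponding values at CT34 were 56.9 and 56.3 and 56.2 and 58.9 FPKM, which overlapped, and at CT30 they were 53.0 and 50.4 and 54.0 and 59.6 FPKM, which did not.

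The other members had shifts in the same direction that did not pass. *Dbp* peaked 0.413 h and 0.597 h earlier with tumors in WT and FoxP1SkmKO mice, *Hlf* 1.18 h and 0.197 h earlier, and *Nfil3* 1.63 h and 0.770 h earlier, by fitted values whose 95% intervals all spanned 0. An earlier peak was common among the genes rhythmic in both classes. The median shift was -0.470 h over the 346 genes in WT mice, of which 67.1% peaked earlier, and -0.512 h over the 230 genes in FoxP1SkmKO mice, of which 63.9% did. It was also earlier between the genotypes, at -0.481 h in control and -0.543 h in KPC mice, for FoxP1SkmKO minus WT. Among the clock genes listed below, 9 of 10 peaked earlier with tumors in WT and 10 of 11 in FoxP1SkmKO mice (median shifts -0.563 and -0.755 h).

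For basal level and amplitude, WT mice gave 0 of 4 members with p under 0.05 for KPC against control (background 8.7% and 2.15%). In FoxP1SkmKO mice 1 of 4 did for each (background 6.87% and 1.27%), and both times it was *Nfil3*, whose fitted mean went from 12.8 to 16.7 FPKM (p = 0.00652, n = 12 mice a class) and whose amplitude went from 6.39 to 10.2 FPKM (p = 0.0437). Adjusted p was 0.559 for the basal level and 1 for the amplitude. The amplitude call was lost on log2(FPKM + 1) (p = 0.222, n = 12 mice a class) and when any of 15 of the 24 libraries was left out. The amplitude of *Hlf* was 1.23 FPKM in WT control and 0.785 FPKM in WT KPC mice (difference -0.443, 95% interval -0.976 to 0.0900, p = 0.0980, n = 12 each). The shifts of basal level and amplitude with tumors differed between the genotypes at p under 0.05 for 1 member each, *Nfil3* (background 3.8% and 2.04%), and 0 after adjustment. The control mice of FoxP1SkmKO, which enter these differences, had a low *Nfil3* of their own.

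Between the genotypes without tumors, the fitted mean of *Nfil3* was 14.9 FPKM in WT and 12.8 FPKM in FoxP1SkmKO mice (n = 12 each, difference -2.12, 95% interval -3.58 to -0.660, p = 0.00700, adjusted p = 0.239) and its amplitude was 8.90 and 6.39 FPKM (p = 0.0201). On log2(FPKM + 1) neither passed (p = 0.124 and 0.192, n = 12 each), and the amplitude call was also lost without WT control CT30 replicate 1 (p = 0.0529, n = 12 and 11). At CT22, WT control mice had 24.9 and 22.7 FPKM and FoxP1SkmKO control mice 16.0 and 20.1 FPKM, and at CT26 14.1 and 13.2 against 9.83 and 10.6 FPKM. The genotypes did not overlap at these times, and the share of all genes apart in this way was not counted. At CT34 they overlapped, with 7.87 and 9.48 FPKM in WT and 9.03 and 10.9 FPKM in FoxP1SkmKO mice. *Nfil3* was the 1 of 4 members with p under 0.05 for the basal level (background 10.1%) and for the amplitude (background 1.67%), and 0 of 4 had it for the peak (background 14.7%). In counts averaged over the 6 times, 0 of 4 members passed the quasi-likelihood test of edgeR after Benjamini-Hochberg adjustment (background 3.45%) and 0 in DESeq2, with 1 at an unadjusted p under 0.05 in each (17.2% of all genes in edgeR), *Nfil3* (log2 fold change -0.17, adjusted p = 0.262).

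Between the genotypes with tumors, 0 of 4 members passed after adjustment. The basal level of *Tef* was 44.5 FPKM in WT KPC and 47.6 FPKM in FoxP1SkmKO KPC mice (n = 12 each, difference 3.02, 95% interval 0.986 to 5.06, p = 0.00635, adjusted p = 0.703), the 1 of 4 with p under 0.05 where 6% of genes had it. For amplitude (background 1.36%) and peak (background 14.7%), 0 of 4 did. In counts, *Tef* had an averaged log2 fold change of 0.09 (95% interval 0.03 to 0.15, adjusted p = 0.189) and *Hlf* of -0.17 (-0.30 to -0.04, adjusted p = 0.284), and 0 of 4 members passed the quasi-likelihood test of edgeR after Benjamini-Hochberg adjustment (background 0.352%) or DESeq2, with 2 at an unadjusted p under 0.05 in each (10.8% of all genes in edgeR). The WT KPC and FoxP1SkmKO KPC mice differed in *Tef* without overlap at CT18, with 33.5 and 36.8 against 39.6 and 40.4 FPKM, at CT26, with 42.03 and 41.4 against 45.1 and 49.5 FPKM, at CT30, with 53.0 and 49.6 against 54.0 and 59.6 FPKM, and at CT34, with 52.7 and 54.9 against 56.2 and 58.9 FPKM. At CT22 the order was the opposite, with 37.7 and 37.3 FPKM in WT and 34.9 and 36.3 FPKM in FoxP1SkmKO mice, and at CT38 they overlapped. The share of all genes whose pairs of mice stood apart in this way was not counted, so these separations are a description only.

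Mice of the same group differed from each other, and the direction of that difference was compared between members as a description. In 17 of the 24 pairs of mice, the mouse with the higher *Dbp* also had the higher *Tef*, against 12 of 24 for *Dbp* and *Hlf* and 7 of 24 for *Dbp* and *Nfil3*. *Tef* and *Hlf* went the same way in 11 pairs, *Tef* and *Nfil3* in 10, and *Hlf* and *Nfil3* in 15. These counts were not tested or taken for other pairs of genes, so they do not show whether members move together. Across the 24 group means of log2 CPM (counts scaled to library size), which share time of day, Pearson's r was 0.905 between *Dbp* and *Tef*, 0.866 between *Tef* and *Hlf* and 0.825 between *Dbp* and *Hlf*. *Nfil3* had r = -0.846 with *Dbp*, -0.645 with *Tef* and -0.606 with *Hlf*, so its pattern was closest to the inverse of *Dbp*.

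Among all genes, the patterns most like that of *Dbp* over these 24 means were those of *Coq10b* (r = 0.929), the REV-ERB gene *Nr1d2* (0.923), the repressor *Ciart* (0.916), *Tef* (0.905) and the zinc exporter *Slc30a1* (0.903). For *Tef* they were *Per3* (0.940), *Cry2* (0.930), both repressors of the clock, the deubiquitinase *Usp2* (0.925), *Slc25a33* (0.919) and *Gpam* (0.917), an enzyme of glycerolipid synthesis. *Hlf* was followed most closely by *Nr1d2* (0.931), *Mtus1* (0.926), *Per3* (0.913), *Usp2* (0.912) and the pyruvate dehydrogenase phosphatase *Pdp1* (0.908). For *Nfil3* they were *Ppp1r3c* (0.933), a glycogen-targeting subunit, the amino acid transporter *Slc38a2* (0.925), *Cry1* (0.904), the myogenic factor *Myod1* (0.904) and *Pnpla3* (0.898). *Nr1d2* was thus listed for *Dbp* and *Hlf*, *Per3* and *Usp2* for *Tef* and *Hlf*, and no gene for all 3 activators.

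The clock genes around these members were taken as a list of 15. Of these, 13 were rhythmic in WT control, 11 in WT KPC, 12 in FoxP1SkmKO control and 13 in FoxP1SkmKO KPC mice. From CT18 to CT30, 9 rose and 3 fell in edgeR (median log2 fold change 0.47, against 0.01 over all genes), and from CT22 to CT34, 9 rose and 4 fell (0.44, against -0.01). The activator *Arntl*, whose product BMAL1 pairs with CLOCK on E-boxes, peaked at CT22.5 in WT control mice, before *Dbp*. *Nr1d1*, the REV-ERB gene that acts on ROREs, had its fitted peak at CT28.5, while *Nfil3* was lowest at CT30 among the 6 sampled times. The fitted peak of *Cry1* was at CT19.6, beside that of *Nfil3* at CT19.5. With tumors at CT26 in WT mice, *Per1* (log2 fold change 1.71), *Per2* (1.09) and *Per3* (0.46) rose in edgeR, and these are D-box genes in addition to clock repressors.

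Genes known to carry D-boxes or to respond to PAR bZIP factors formed a list of 16, of which 7 are also in the clock list. In WT control mice 9 were rhythmic, in WT KPC and FoxP1SkmKO control mice 7 each, and in FoxP1SkmKO KPC mice 10. Of 15 tested in counts, 7 rose and 2 fell from CT22 to CT34 (median log2 fold change 0.27, against -0.01 over all genes), among them *Per2* (2.90), *Per1* (1.78), *Per3* (1.31) and *Nr1d2* (0.98), while *Cry1* fell by 0.47 and *Alas1*, an enzyme of heme synthesis, fell by 0.25. From CT26 to CT38, where *Dbp* had a log2 fold change of -0.02, 9 rose and 2 fell, including *Pdxk* (0.84), which makes pyridoxal phosphate, and *Ppara* (0.88), a fatty acid receptor. With tumors, *Ppara* rose in WT mice at CT26 (1.05), and averaged over the 6 times *Per1* (0.61) rose and *Alas1* fell by 0.22 in WT mice, while 0 of 15 passed in FoxP1SkmKO mice. When the KPC effect was compared between the genotypes, 0 of 15 passed. The fitted mean of *Per1* was higher with tumors in both, at 6.61 and 9.01 FPKM in WT and 9.91 and 12.1 FPKM in FoxP1SkmKO mice. The D-box motif stood within 1000 bases before the start in *Lpl*, *Per2*, *Per3* and *Rora* of the 16 genes.

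The C/EBP factors, bZIP proteins related to NFIL3 and the PAR group, formed a list of 6, of which 5 were tested in counts. *Cebpd* was the 1 that passed with tumors, at CT38 in WT (log2 fold change 1.71) and FoxP1SkmKO mice (1.66) and averaged over the 6 times in both (0.70 and 0.51). At that time *Nfil3* had log2 fold changes of 0.45 and 0.67, which did not pass. In rhythm, 1 of 6 was called in each control class and 0 in each KPC class, whereas all 4 members were called in every class.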

How the data were processed

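Tibialis anterior RNA was poly-A selected and sequenced as read pairs. The authors deposited raw counts per gene, in 12 tables of 4 libraries each, and an FPKM table of 56748 genes, both on mm39. The study's methods name STAR and HTSeq, whereas the submitters' processing notes list HISAT2 2.0.5 and DESeq2 1.20.0, so the aligner was not settled here. Genes with at most 1 count over a table's 4 libraries were not listed and entered as 0. The deposited tables also hold the authors' fold changes and p-values, which were not used. Library totals were 14480446 to 20787135 counts.

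Sinusoids of 24 h were fitted to the deposited FPKM per class (SciPy 1.17.1, NumPy 2.4.6, pandas 2.3.3), with F and likelihood ratio tests. Counts were tested with edgeR 4.0.16 (limma 3.58.1, R 4.3.3), using TMM scaling, filterByExpr (15637 genes) and the quasi-likelihood test on 24 group coefficients, with Benjamini-Hochberg adjustment and a threshold of 0.05. DESeq2 1.42.0, no filter, a replicate block, log2(FPKM + 1), 6 separate means and leaving out each library were alternatives. Scripts were tested on simulated data. Sequences came from GRCm39 with GENCODE vM39. Figures used matplotlib 3.10.9.

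The 4 members and the gene lists were chosen with earlier results of these data known. The text names the members, the 5 genes with the highest Pearson's r to each over the 24 group means, and listed genes. The lists were clock genes, D-box targets, C/EBP factors, and markers of muscle fibers, immune cells, fibroblasts, endothelial cells and adipocytes.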

Additional observations from a re-analysis of the deposited data

Results flagged for a closer look

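For 2 members the shift with KPC tumors differed between WT and FoxP1SkmKO mice by a test of the difference itself at an unadjusted p under 0.05, and neither passed after adjustment over all genes. For *Nfil3*, the shift of the basal level in WT minus that in FoxP1SkmKO mice was -4.01 FPKM (95% interval -7.55 to -0.461, adjusted p = 0.776 over all genes fitted) and that of the amplitude was -5.10 FPKM (adjusted p = 0.742). In counts averaged over the 6 times, the difference was -0.28 on the log2 scale for *Nfil3* and 0.22 for *Hlf* (adjusted p = 0.763 for both from edgeR). With 2 mice in each group, single samples were not examined for distance from the others.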

How the results depend on the processing

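No value that passed its test changed direction under any alternative, but values that did not pass changed sign in 5 fits of a basal level and 1 of a peak time on log2(FPKM + 1), and in up to 65 fits of a kind when 1 library was left out. Among the latter, *Nfil3* for KPC minus control at CT34 in FoxP1SkmKO mice (log2 fold change 0.31) ranged from -0.06 to 0.60. The 12 h contrasts kept their calls in all of them. With adjusted p in place of p under 0.01, rhythm was lost for *Hlf* in WT control (0.0605), WT KPC (0.166), FoxP1SkmKO control (0.0853) and FoxP1SkmKO KPC mice (0.124), and for *Nfil3* in WT KPC (0.172) and FoxP1SkmKO KPC mice (0.121). Adjusted over genes with a mean of at least 1 FPKM, the values for the KPC classes were 0.0740 (WT) and 0.0526 (FoxP1SkmKO) for *Hlf* and 0.0765 and 0.0515 for *Nfil3*. With 6 separate means in place of a sinusoid, p was 0.0350 for *Hlf* and 0.0190 for *Nfil3* in WT KPC mice.

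On log2(FPKM + 1), KPC minus control in FoxP1SkmKO mice passed for the basal level of *Hlf* (-0.12) and no longer for the amplitude of *Nfil3* (0.20). FoxP1SkmKO minus WT in controls passed for the peak of *Dbp* (-0.999 h) and the basal level of *Tef* (0.048) and no longer for the basal level (-0.16) and amplitude (-0.19) of *Nfil3*, and in KPC mice it passed for the basal level of *Hlf* (-0.12). Without the filter, log2 fold changes passed in WT mice for *Dbp* (0.44) and *Hlf* (0.48) at CT26 and *Nfil3* at CT30 (0.53) and CT38 (0.46), and in FoxP1SkmKO mice for *Dbp* at CT22 (-0.52) and CT26 (0.61) and *Nfil3* at CT22 (0.54), CT38 (0.67) and averaged (0.32). That fit had infinite prior degrees of freedom and called 4.12%, 0.599% and 1.17% of 28726 genes in WT mice at CT26, CT30 and CT38, and 0.477%, 0.637%, 1.33% and 1.96% in FoxP1SkmKO mice at CT22, CT26 and CT38 and averaged. DESeq2 called *Hlf* in WT mice at CT26 (0.50) and *Nfil3* averaged in FoxP1SkmKO mice (0.32). The cause was not tested. With a replicate block, averaged *Nfil3* in FoxP1SkmKO mice passed (0.31, adjusted p = 0.0419 from edgeR) and no other call changed. The labels give the mice a replicate number and do not say whether it marks anything shared. Of 12 KPC and control pairs, 0 deviated together with r over 0.1 (-0.101 to 0.0854). Over all 276 pairs of groups, 12 did (-0.324 to 0.235).

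Leaving out 1 library moved the rhythm p of *Hlf* in WT KPC mice between 0.00156 and 0.0151 (over the threshold without CT22 replicate 1 or 2 or CT34 replicate 2) and that of *Nfil3* in WT KPC mice between 3.2e-04 and 0.0137 (without either CT30 replicate). Averaged *Nfil3* in FoxP1SkmKO mice ranged from 0.25 to 0.36 and passed without KPC replicate 1 of CT18, CT22 or CT34 or control replicate 1 of CT38. For KPC minus control, the amplitude of *Hlf* in WT ranged from -0.538 to -0.293 (passing without KPC CT30 replicate 2 or control CT38 replicate 2), and in FoxP1SkmKO mice the amplitude of *Nfil3* ranged from 3.23 to 5.11 (lost without any of 15 of 24 libraries), while the basal level of *Hlf* ranged from -0.379 to -0.245 (now passing without any of 6 libraries) and that of *Tef* from 1.30 to 2.03 (now passing without any of 4). For FoxP1SkmKO minus WT in controls, the amplitude of *Nfil3* ranged from -3.13 to -2.005 (lost without WT CT30 replicate 1), while its peak ranged from -1.21 to -0.634 h (now passing without FoxP1SkmKO CT22 replicate 2) and the basal level of *Tef* from 1.14 to 1.98 (now passing without FoxP1SkmKO CT26 replicate 2 or WT CT34 replicate 2). In KPC mice, the basal level of *Hlf* ranged from -0.351 to -0.198 and the peak of *Dbp* from -1.28 to -0.709 h (each passing without FoxP1SkmKO CT34 replicate 1 or WT CT38 replicate 2), and the basal level of *Nfil3* from 1.22 to 2.87 (passing without WT CT38 replicate 2). With 2 mice a group, the standard error of the log2 fold change at a single time was 0.07 for *Tef* and up to 0.22 for *Dbp* in edgeR, which limits what could be called there.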
